A study of Mus musculus with 7 samples.

Results

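The genes of the proteasome, ubiquitin and SUMO families were examined in hearts of Myc-null and wild-type mouse embryos. Members were every named gene on the array whose symbol fits a rule. The symbol begins with Psma to Psmg, Ube2, Usp and a digit, Fbxo, Fbxw, Fbxl, Cul and a digit, Senp or Sumo. This rule, which also names Senp1, was set with earlier results of these data known. The rule found 105 genes, measured by 136 bead targets, among 7413 named genes. They comprise 24 proteasome genes, 22 conjugating enzymes, 23 ubiquitin proteases, 28 F-box and cullin genes and 8 genes of the SUMO and Senp families. Usp6nl, which encodes a GTPase-activating protein for Rab proteins, and Psme3ip1, which encodes a protein that binds the proteasome activator Psme3, meet the symbol pattern but are neither a protease nor a subunit. They stay in the counts and means of their classes and are marked in the main counts.

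The samples are 4 Myc-null hearts and 3 wild-type hearts, titled E13.5 for their embryonic day, with each RNA on its own array of a single Illumina MouseRef-8 BeadChip. The labels name no strain, litter, sex or method of removing Myc, and another label gives a range of days around the titled one. The genotype tag is the same on all samples and a description field speaks of embryos of another kind, so the groups rest on the titles. One label calls the RNA that of cardiac myocytes while the protocol describes selected whole hearts, and no label says that hearts of 1 genotype are from different litters, so p-values measure the spread between these samples. In a whole heart, fewer cells of a type and less RNA per cell cannot be told apart. The Myc-null arrays occupy 1 end of the chip and the wild-type arrays the other, so that position and genotype cannot be told apart. Wild-type 3 stood apart: its correlation with the other 6 arrays was 0.926 to 0.938 over log2 signals, against 0.961 to 0.991 among those 6. The target for 18S ribosomal RNA read 702, 1520, 759 and 761 units on the Myc-null arrays and 902, 914 and 2680 on the wild-type arrays, and its part in the results was not tested. The target for Myc was detected on 0 of 7 arrays, and the genotype labels could not be checked against it.

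Ubiquitin is attached to a protein through an activating enzyme (E1), a conjugating enzyme (E2, mostly the Ube2 genes) and a ligase (E3), and chains of ubiquitin send many proteins to the proteasome. Cullins are scaffolds of large ligases, and F-box proteins are the parts of the Cul1 ligases that choose the substrate. Ubiquitin proteases of the Usp family take ubiquitin off again. SUMO proteins are related modifiers that alter the location or activity of nuclear proteins, and Senp proteases mature them and remove them. In the heart these systems are known for turning over sarcomere proteins and for quality control, and Myc itself is a substrate of the F-box protein Fbxw7.

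Detection limited the account first. Of the 105 members, 69 were detected on at least 3 arrays and tested, 65.7%, against 3396 of 7413 named genes, 45.8%. Of the tested members, 58 were detected on all 7 arrays. The members not tested were 3 proteasome genes, 4 conjugating enzymes, 12 Usp genes, 14 F-box and cullin genes and 3 SUMO and Senp genes. Of these, 34 were detected on 0 arrays, among them Psma5 (a subunit of the core ring), Psmb8 (an interferon-induced subunit), Sumo2, Ube2b, Ube2c (the conjugating enzyme of the anaphase-promoting complex), Usp9x and Cul5. A target at 0 arrays shows only that the bead signal did not pass the detection score there. Psmc6, an ATPase of the proteasome, was detected on 2 arrays and Usp42 on 1.

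No member passed the test. With limma and Benjamini-Hochberg adjustment over 9066 units (named genes, or single targets where no gene name was found), 0 of 69 members and 0 units (0%) were below an adjusted p of 0.05, the lowest being 0.76. Unadjusted, 4 members had a p below 0.05, 5.8%, against 485 units, 5.35% of all. Of the 4, only Usp32 had a higher mean in Myc-null hearts, against 3.39% of units, and Senp1, Psme1 and Ube2l3 had lower means, against 1.96% of units. The members under this limit numbered 1 without Myc-null 2 (1.45%, against 3.43% of units), 2 without Myc-null 4 (2.9%, against 4.65%), 6 without wild-type 2 (8.7%, against 7.92%) and 5 without wild-type 3 (7.25%, against 3.94%). The 2 genotypes did not overlap for 4 members, against 6.83% of units. Cul4b was the member whose 4 Myc-null arrays were all above the 3 wild-type arrays, against 4.07% of units, and Senp1, Psme1 and Ube2l3 were the members with all Myc-null arrays below, against 2.76% of units. With all 7 arrays and both directions counted, 5.8% of members had a p below 0.05, near the 5.35% of units. For non-overlap the share was 5.8% of members, against 6.83% of units. With the deposited scaling the split by direction differed: in both counts 3 of the 4 members were lower in Myc-null hearts, whereas more units were higher than lower. At p below 0.05 this moved with the scaling. With quantile normalization 2 of 4 members and 44.4% of such units were higher. With neqc (background and quantile correction of the raw signals) it was 2 of 4 and 52.9%, and with a common median 1 of 4 and 42.3%. With 4 members in each count, the split of members was not tested. Mean log2 signal was higher in Myc-null hearts for 38 members and lower for 29, with Psmd11 and Usp11 at the floor on all arrays and so equal, and the median log2 difference, Myc-null minus wild-type, was 0.03, the same as over all units. With quantile normalization the split was 31 higher and 37 lower.

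**Figure D1:**
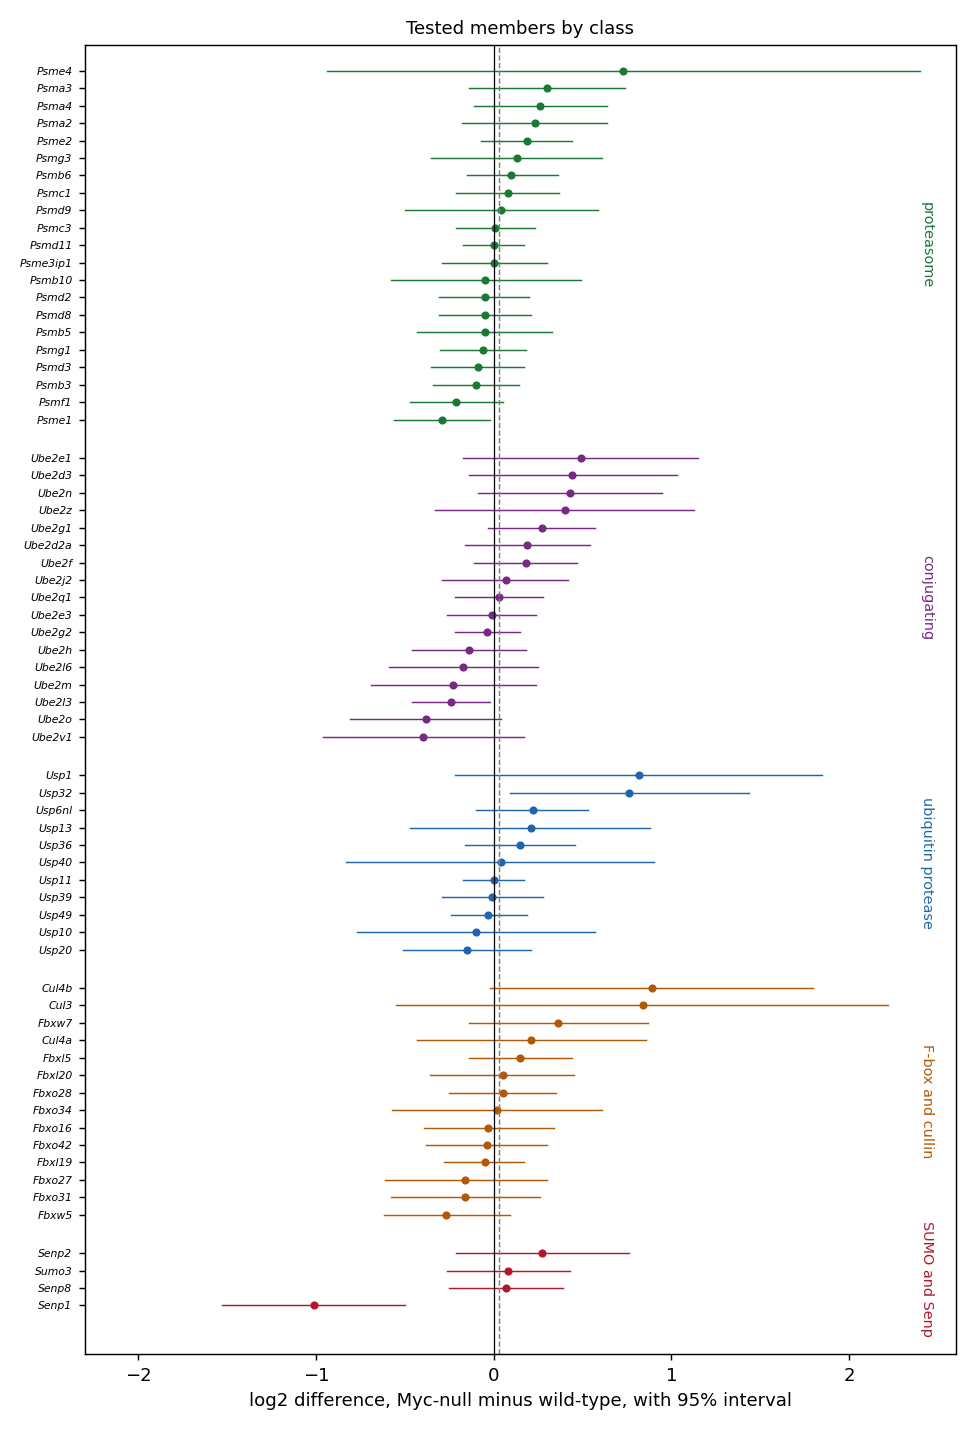
Log2 difference of 67 of the 69 tested members, Myc-null minus wild-type, with its 95% interval from limma, grouped by class. The solid line marks 0 and the dashed line the median of all units, 0.03. The interval lies wholly on 1 side of 0 for Senp1, Psme1, Ube2l3 and Usp32, and the intervals of Psme4, Cul3 and Usp1 are among the widest.

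Senp1 encodes the nuclear protease that removes SUMO from its targets, and loss of it in mice is known to impair red cell production in the embryo. Its normalized signal was 59.3, 73.2, 90.5 and 81.0 on Myc-null arrays 1 to 4, and 166, 186 and 113 on wild-type arrays 1 to 3. Every Myc-null array was below every wild-type array, and wild-type 3 was the nearest to the Myc-null group. The means were 76.0 ± 13.2 in Myc-null hearts (SD, n = 4) and 155 ± 37.4 in wild-type hearts (SD, n = 3). The log2 difference was -1.01 with a standard error of 0.22 and a 95% interval of -1.53 to -0.50, and limma gave an unadjusted p of 0.00246 and an adjusted p of 0.76. Before normalization the bead averages were 174, 180, 189 and 155 in Myc-null hearts and 279, 262 and 249 in wild-type hearts. Each average came from 27 to 57 beads in Myc-null hearts and 39 to 42 beads in wild-type hearts, with bead standard deviations of 7.2 to 12.9 units in Myc-null hearts and 12.1 to 14.9 units in wild-type hearts. The bead averages too did not overlap between the genotypes. Because the signal stood close to the floor, the size of the difference moved with the floor: it was -0.40 with the floor doubled and -0.66 with an offset in place of the floor. Without wild-type 3 it was -1.22.

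The genotypes overlapped for Sumo3, Senp2 and Senp8, which belong to the same class. Sumo3, nearly the same protein as Sumo2, had means of 1790 ± 236 in Myc-null hearts and 1690 ± 208 in wild-type hearts, a log2 difference of 0.08. Senp2, a protease of the nuclear pore that also takes SUMO off, had means of 378 ± 33.6 in Myc-null hearts and 320 ± 88.6 in wild-type hearts. Wild-type 3 was the lowest array for both. Senp8, which acts on the modifier Nedd8 instead of SUMO, was detected on 5 arrays, with a log2 difference of 0.07.

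The proteasome genes had a smaller spread within genotypes than the other classes. Of 24, 21 were tested, of which 11 had higher and 9 lower means in Myc-null hearts, and their median log2 difference was 0.00. Without Psme3ip1, 10 of 20 had higher and 9 lower means, and the median was again 0.00. Among genes with a mean signal of at least 500, the median within-genotype SD of log2 signal was 0.13 for 16 proteasome genes, Psme3ip1 included. It was 0.20 for 15 other members, against 0.22 for 2986 units. Psme4, with a very low signal on wild-type 3, fell below that cut. Over all 21 tested proteasome genes, Psme4 included, the median was also 0.13, against 0.25 over all units. That order was not tested. The Psma to Psmd families for the most part encode the core and the regulatory particle. Their 13 tested genes above the floor on at least 1 array had log2 differences between -0.10 and 0.30. All of their 95% intervals lay between -0.58 and 0.74, so a difference of 1 on the log2 scale was outside each of them. Psmd9 was at the floor on wild-type 2, where a difference can be understated. Psmd11, a subunit of the lid, was at the floor on all 7 arrays, as was Usp11 among the proteases, and they were equal by construction, which carries no information.

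The outer rings of the core are built of Psma subunits. Psma2 had 6130, 7410, 6270 and 8090 units on the Myc-null arrays and 6760, 6500 and 4690 on the wild-type arrays. Psma3 had 5120, 6830, 4960 and 7950 units on the Myc-null arrays and 4970, 5100 and 4800 on the wild-type arrays. Psma4 had 2050, 2350, 2160 and 2060 units on the Myc-null arrays and 2010, 2060 and 1390 on the wild-type arrays. Wild-type 3 was the lowest array for all 3 genes, Myc-null 2 and Myc-null 4 were the highest for Psma2 and Psma3, and the genotypes overlapped. The log2 differences were 0.23, 0.30 and 0.26, and without wild-type 3 they were 0.06 for Psma2, 0.28 for Psma3 and 0.08 for Psma4.

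The inner rings hold the Psmb subunits, some of which cut the substrate. Psmb6, a catalytic subunit, had means of 6070 ± 446 in Myc-null hearts and 5660 ± 559 in wild-type hearts, and Psmb5, another catalytic subunit, had 1170 ± 221 in Myc-null hearts and 1200 ± 93.2 in wild-type hearts. Psmb3, a structural subunit, had 4280 ± 232 in Myc-null hearts and 4590 ± 422 in wild-type hearts. None of these separated the genotypes. Psmb10, the interferon-induced replacement of a catalytic subunit, had 740, 503, 734 and 1020 units on the Myc-null arrays and 727, 791 and 735 on the wild-type arrays. Its lowest and its highest arrays were both Myc-null, and the means were 749 ± 212 in Myc-null hearts and 751 ± 35.1 in wild-type hearts.

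The regulatory particle recognizes and unfolds tagged proteins. Its ATPases Psmc1 and Psmc3 had log2 differences of 0.08 and 0.01, with means of 737 ± 58.3 and 2150 ± 158 in Myc-null hearts, against 698 ± 90.9 and 2130 ± 71.5 in wild-type hearts; the sign of Psmc3 was negative with scaling to a common median. Psmd2, a scaffold of the base, had a log2 difference of -0.05, and Psmd3, a subunit of the lid, one of -0.09. All of these overlapped. The assembly chaperone Psmg1 had means of 731 ± 55.6 in Myc-null hearts and 761 ± 57.4 in wild-type hearts, a log2 difference of -0.06. Psmf1, named as an inhibitor of the core, had 681, 653, 545 and 651 units on the Myc-null arrays and 752, 675 and 764 on the wild-type arrays. Myc-null 1 lay just above wild-type 2, so the genotypes overlapped, and the log2 difference was -0.21 with a 95% interval of -0.47 to 0.05.

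Psme1 and Psme2 encode the alpha and beta subunits of the ring-shaped activator that interferon induces, and the ring is built of both. Psme1 had 3150, 2760, 3540 and 3240 units on the Myc-null arrays and 3990, 4090 and 3550 on the wild-type arrays. The genotypes did not overlap, but Myc-null 3 and wild-type 3 differed by less than the spread within either group. The means were 3170 ± 318 in Myc-null hearts and 3880 ± 286 in wild-type hearts, and the log2 difference was -0.29 with a 95% interval of -0.56 to -0.02; limma gave an unadjusted p of 0.0379 and an adjusted p of 0.76. A dimmer target for Psme1 did not repeat this, with means of 1720 ± 399 in Myc-null hearts and 1730 ± 154 in wild-type hearts and a log2 difference of -0.04. Psme2 had 613, 542, 535 and 660 units on the Myc-null arrays and 488, 538 and 519 on the wild-type arrays. Myc-null 3 lay just below wild-type 2, and the log2 difference was 0.19 with a 95% interval of -0.07 to 0.44.

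Set against each other, the partners of the ring differed in sign. The log2 ratio of the Psme2 signal to the Psme1 signal was -2.36, -2.35, -2.73 and -2.29 on the Myc-null arrays and -3.03, -2.93 and -2.77 on the wild-type arrays. With the brighter Psme1 target all Myc-null ratios were above all wild-type ratios, with means of -2.43 ± 0.20 in Myc-null hearts and -2.91 ± 0.13 in wild-type hearts. An exact permutation over the 35 splits of the arrays gave p = 0.0571 for the difference of 0.48 between genotypes. The ratio was chosen after its values were seen, so this p carries no weight. Only the difference between genotypes can be read, since the bead sequences differ. With the dimmer Psme1 target the ratio was -1.65, -1.20, -1.55 and -1.70 on the Myc-null arrays and -1.94, -1.72 and -1.59 on the wild-type arrays, and the genotypes overlapped. Among the listed interferon-induced genes, 6 were tested, of which 4 had higher and 2 lower means in Myc-null hearts, and 0 passed the adjusted test. The 6 include the members Psme1, Psme2 and Psmb10, and the 2 lower genes were Psme1 and Psmb10.

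Psme4 encodes a large single-chain activator of the core. Its signal was 576, 504, 667 and 395 on the Myc-null arrays and 625, 592 and 85.7 on the wild-type arrays. Wild-type 3 stood far below all other arrays, and the other wild-type arrays lay within the Myc-null range. The log2 difference was 0.73 over all arrays and -0.21 without wild-type 3.

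**Figure D2:**
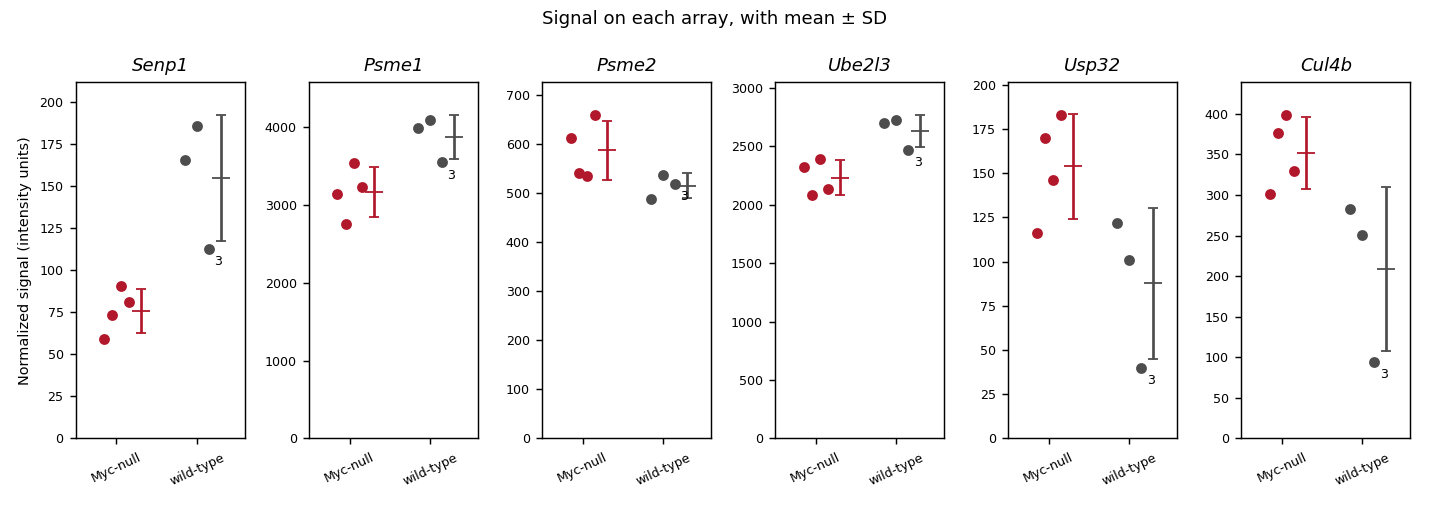
Normalized signal on each array (linear scale, intensity units) for Senp1, Psme1, Psme2, Ube2l3, Usp32 and Cul4b, with Myc-null hearts in red and wild-type hearts in grey. Each point is 1 array, the bars are the mean ± SD, and "3" marks wild-type 3. Senp1, Psme1 and Ube2l3 have every Myc-null point below every wild-type point, and wild-type 3 is the lowest point for Usp32 and Cul4b.

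The conjugating enzymes were evenly divided. Of 22, 18 were tested, with 9 higher and 9 lower means in Myc-null hearts, a median log2 difference of 0.01 and a range of -0.40 to 0.49. Ube2l3, which loads ligases of the HECT and RING-between-RING kinds such as parkin, had 2320, 2080, 2390 and 2130 units on the Myc-null arrays and 2700, 2720 and 2470 on the wild-type arrays. All Myc-null arrays were below all wild-type arrays, with a narrow gap between Myc-null 3 and wild-type 3. The means were 2230 ± 148 in Myc-null hearts and 2630 ± 137 in wild-type hearts, and the log2 difference was -0.24 with a 95% interval of -0.46 to -0.02. For this difference limma gave an unadjusted p of 0.0382 and an adjusted p of 0.76.

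Ube2o, a large enzyme that acts as conjugating enzyme and ligase and is known for clearing ribosomal proteins in maturing red cells, had 1140, 1240, 1120 and 1020 units on the Myc-null arrays and 1340, 1220 and 1960 on the wild-type arrays. Here wild-type 3 was the highest array, Myc-null 2 exceeded wild-type 2, and the log2 difference was -0.38 with a 95% interval of -0.81 to 0.04. Ube2d2a and Ube2d3, general enzymes that work with many RING ligases, had log2 differences of 0.19 and 0.44. For Ube2d3 the signals were 323, 357, 399 and 353 on the Myc-null arrays and 307, 345 and 170 on the wild-type arrays, and without wild-type 3 the difference was 0.13. Ube2n and Ube2v1, which form the pair that builds chains linked through lysine 63, had log2 differences of 0.43 and -0.40. Their 95% intervals, -0.09 to 0.95 for Ube2n and -0.96 to 0.17 for Ube2v1, both included 0. Without wild-type 3 the differences were 0.20 for Ube2n and -0.33 for Ube2v1. Ube2m and Ube2f, the conjugating enzymes for Nedd8, the modifier that activates cullins, had log2 differences of -0.23 and 0.18. With all arrays the genotypes overlapped for both, and without wild-type 3 the differences were -0.06 for Ube2m and 0.08 for Ube2f.

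Among the Usp proteases, 11 of 23 were tested, with 6 higher and 4 lower means in Myc-null hearts and a median log2 difference of 0.04. Without Usp6nl the median of 10 was 0.02. Usp32, a protease anchored to membranes of the Golgi and the endosomes, had 116, 170, 146 and 183 units on the Myc-null arrays and 122, 101 and 40 on the wild-type arrays. Wild-type 3 was below the floor of 58.2 and the genotypes overlapped, since wild-type 1 exceeded Myc-null 1. The means were 154 ± 29.5 in Myc-null hearts and 87.4 ± 42.4 in wild-type hearts, and the log2 difference was 0.76 with a 95% interval of 0.09 to 1.44; limma gave an unadjusted p of 0.0316 and an adjusted p of 0.76. Without wild-type 3 the difference was 0.45.

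Usp1, which removes ubiquitin from Fancd2 and PCNA in DNA repair, had 415, 667, 461 and 543 units on the Myc-null arrays and 390, 469 and 136 on the wild-type arrays. Wild-type 3 was again lowest, and the log2 difference was 0.82 over all arrays and 0.26 without it. A dimmer target for Usp1, below the floor on wild-type 3, gave 0.21 over all arrays. Usp20, known for stabilizing a beta-adrenergic receptor, had means of 1430 ± 228 in Myc-null hearts and 1580 ± 112 in wild-type hearts. Usp39, a splicing factor with an inactive protease fold, had 906 ± 92.1 in Myc-null hearts and 911 ± 87.9 in wild-type hearts, a log2 difference of -0.01 with a 95% interval of -0.29 to 0.28. The genotypes overlapped for these as well.

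Of the 28 F-box and cullin genes, 14 were tested, with 8 higher and 6 lower means in Myc-null hearts and a median log2 difference of 0.03. Cul4b, the X-linked scaffold of ligases that use Ddb1, had 301, 376, 399 and 329 units on the Myc-null arrays and 283, 251 and 94.1 on the wild-type arrays. The Myc-null arrays were all higher, and most of the wild-type spread came from wild-type 3. The log2 difference was 0.89 with a 95% interval of -0.02 to 1.80, and 0.39 without wild-type 3; limma gave an unadjusted p of 0.0531 and an adjusted p of 0.76. Cul3, the scaffold of ligases that use BTB proteins such as Keap1, had 1570, 1610, 1960 and 1710 units on the Myc-null arrays and 1800, 1520 and 318 on the wild-type arrays. Its log2 difference was 0.84 with all arrays and 0.04 without wild-type 3. The related Cul4a was detected on 4 arrays, with a log2 difference of 0.21.

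Fbxw7, which recognizes phosphorylated Myc, cyclin E and Notch, had 154, 206, 180 and 220 units on the Myc-null arrays and 174, 167 and 107 on the wild-type arrays. Myc-null 1 was below 2 of the wild-type arrays, and the log2 difference was 0.36 with a 95% interval of -0.14 to 0.87. Without wild-type 3 the difference was 0.14. Fbxw5, a substrate receptor reported for Cul1 and Cul4 ligases, had 1510, 1320, 1580 and 1760 units on the Myc-null arrays and 1790, 1600 and 2190 on the wild-type arrays. Its log2 difference was -0.27 with all arrays, where the genotypes overlapped, and -0.14 without wild-type 3. Fbxo31, an F-box protein that acts after DNA damage, and Fbxo27, a receptor for glycoproteins, each had a log2 difference of -0.16. Without wild-type 3 the differences were 0.00 for Fbxo31 and 0.01 for Fbxo27. Fbxo28 and Fbxo42 had log2 differences of 0.05 and -0.04, and that of Fbxo28 was -0.04 with quantile normalization.

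Wild-type 3 set the size of most of the larger differences among members. This was measured by leaving that array out. It was at least 1 log2 unit below the median of the 7 arrays for 6 members, 8.70%, against 8.72% of all units. These were Psme4 at -2.75, Cul3 at -2.34, Usp1 at -1.76, Cul4b at -1.68, Usp32 at -1.06 and Ube2d3 at -1.01. None of the 14 tested Psma to Psmd genes was among them. With all arrays, 6 members had a log2 difference of at least 0.5 in either direction, 8.7%, against 8.39% of units. Without wild-type 3 there were 2, 2.9%, against 3.81% of units. These were Senp1 at -1.22 and Ube2z, a conjugating enzyme loaded by the activating enzyme Uba6, at 0.69. The sign changed for 16 of 69 members, 23.2%, against 23.9% of units.

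**Figure D3:**
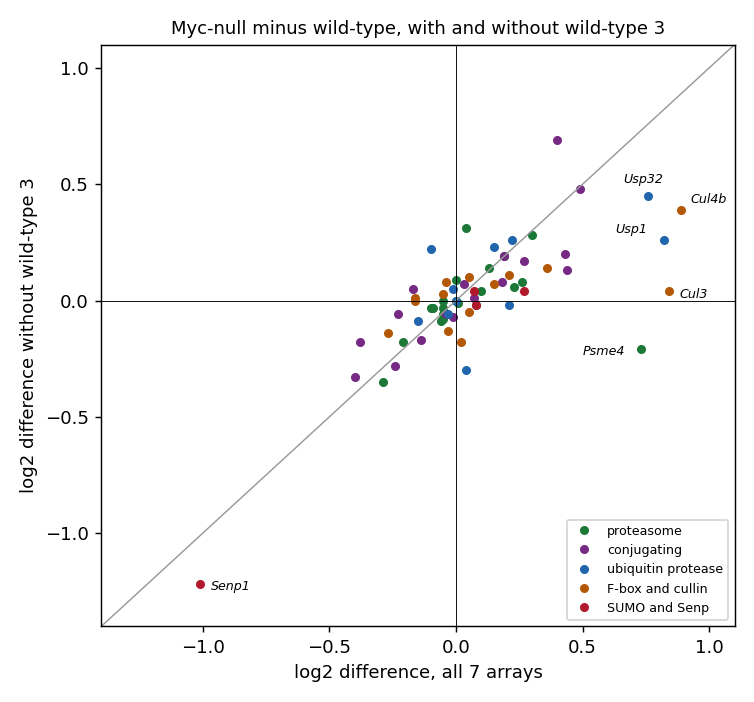
Log2 difference of the same 67 tested members, Myc-null minus wild-type, over all 7 arrays (horizontal axis) and without wild-type 3 (vertical axis), coloured by class, with a diagonal line for equal values. Senp1 lies at -1.01 and -1.22, whereas Psme4, Cul3, Usp1, Cul4b and Usp32 lie to the right of the diagonal, with Psme4 at 0.73 and -0.21.

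Array by array, 4 of the 5 classes were lowest on wild-type 3. The mean deviation of the proteasome genes from each gene's mean over the 7 arrays was 0.03, 0.03, -0.05 and 0.09 log2 units on the Myc-null arrays and 0.04, 0.00 and -0.13 on the wild-type arrays. For the conjugating enzymes it was -0.03, 0.04, 0.07 and 0.00 on the Myc-null arrays and -0.08, 0.03 and -0.03 on the wild-type arrays. For the Usp genes it was -0.01, 0.06, 0.09 and 0.17 on the Myc-null arrays and -0.03, 0.00 and -0.26 on the wild-type arrays. The conjugating enzymes were the exception, lowest on wild-type 1. For the F-box and cullin genes wild-type 3 was at -0.27 and for the SUMO and Senp genes at -0.24, against -0.12 over all units.

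**Figure D4:**
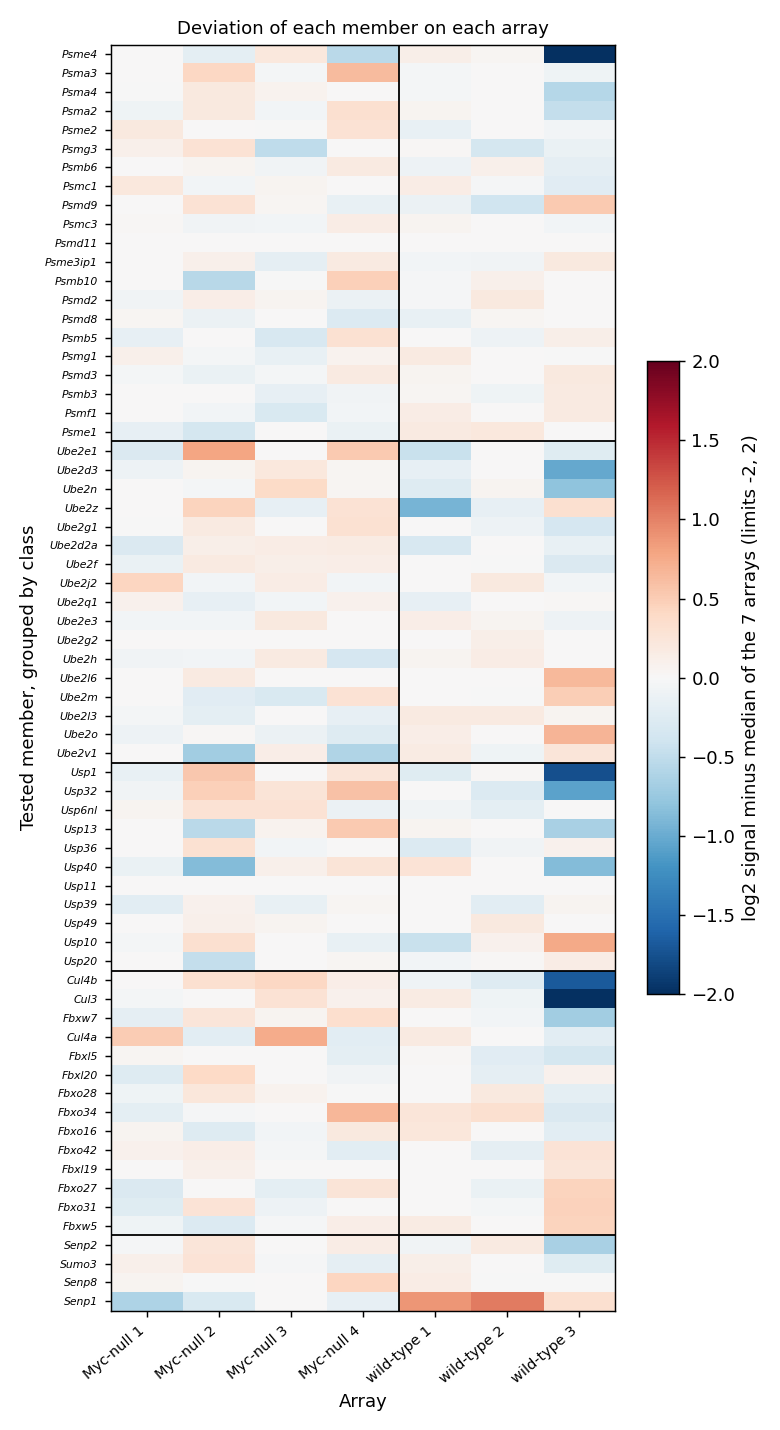
Log2 signal of these 67 tested members on each array minus each gene's median over the 7 arrays, with Myc-null arrays on the left and wild-type arrays on the right, and members grouped by class. Colours run from -2 to 2, so that Psme4 at -2.75 and Cul3 at -2.34 on wild-type 3 are shown at the limit.

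The beads themselves gave a further check, since some genes have a second target. For 9 members with 2 tested targets, the sign of the log2 difference was the same in 6 and opposite in 3 (Fbxo42, Sumo3 and Ube2e1), and the median gap between the targets was 0.17. For Ube2e1, a conjugating enzyme, the brighter target gave 0.49 and the dimmer one -0.21. Senp1, Ube2l3, Usp32 and Cul4b each had a single target.

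The authors' deposited table scores each target for a difference between the groups. Its sign was read from the arrays: all 319 units at 13 or above had a higher mean in Myc-null hearts and all 92 at -13 or below a lower one. In the authors' deposited table Cul4b scored 15 and Usp32 14.5, while Senp1 scored -21.5 and Psme1 -13.4. These 4 are 5.8% of tested members, against 4.53% of units.

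Promoter sequences are shown for the 4 members with an unadjusted p under 0.05 and for Psma4, a core subunit with an E-box, because Myc binds DNA with its partner Max at E-boxes spelled CACGTG. Each runs from 250 bases before to 30 bases after the RefSeq start in GRCm38.p6, 5′ to 3′ on the gene's strand, and capitals mark CACGTG or TGACNNNGC, the core of the antioxidant-response type element to which the proteasome gene activator Nrf1 (Nfe2l1) binds. They are Senp1 at chr15:98093540-98093819 on the minus strand, Psme1 at chr14:55578244-55578523 on the plus strand, Ube2l3 at chr16:17201463-17201742 on the minus strand, Usp32 at chr11:85139926-85140205 on the minus strand and Psma4 at chr9:54950609-54950888 on the plus strand.
Senp1: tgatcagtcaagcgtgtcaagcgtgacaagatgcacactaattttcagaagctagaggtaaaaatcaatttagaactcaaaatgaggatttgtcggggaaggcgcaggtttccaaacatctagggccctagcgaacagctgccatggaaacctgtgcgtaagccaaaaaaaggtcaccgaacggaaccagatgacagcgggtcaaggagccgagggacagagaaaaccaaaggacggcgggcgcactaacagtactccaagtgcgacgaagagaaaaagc
Psme1: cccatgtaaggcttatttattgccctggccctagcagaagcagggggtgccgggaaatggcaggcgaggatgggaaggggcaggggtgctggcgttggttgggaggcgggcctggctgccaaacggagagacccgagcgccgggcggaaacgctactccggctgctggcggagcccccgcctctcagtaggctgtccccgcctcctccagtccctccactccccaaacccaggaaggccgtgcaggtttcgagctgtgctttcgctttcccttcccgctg
Ube2l3: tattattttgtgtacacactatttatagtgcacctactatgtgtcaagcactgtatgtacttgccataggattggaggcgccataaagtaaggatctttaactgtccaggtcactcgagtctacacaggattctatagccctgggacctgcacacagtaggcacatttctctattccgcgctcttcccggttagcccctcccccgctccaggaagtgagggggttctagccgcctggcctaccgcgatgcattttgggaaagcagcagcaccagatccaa
Usp32: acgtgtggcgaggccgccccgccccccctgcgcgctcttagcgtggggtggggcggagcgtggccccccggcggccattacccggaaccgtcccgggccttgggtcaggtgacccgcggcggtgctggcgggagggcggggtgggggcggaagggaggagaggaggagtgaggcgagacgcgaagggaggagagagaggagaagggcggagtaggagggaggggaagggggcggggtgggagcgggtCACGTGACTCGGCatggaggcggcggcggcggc
Psma4: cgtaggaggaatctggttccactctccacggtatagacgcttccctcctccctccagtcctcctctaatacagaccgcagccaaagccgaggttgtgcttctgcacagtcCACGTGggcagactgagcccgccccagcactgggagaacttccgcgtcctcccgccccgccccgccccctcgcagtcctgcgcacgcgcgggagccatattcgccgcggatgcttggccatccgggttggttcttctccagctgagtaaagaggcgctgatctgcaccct

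The windows of Senp1, Psme1 and Ube2l3 held neither motif on either strand. In Usp32 the E-box begins at position -3 from the start and overlaps a TGACNNNGC match, and in Psma4 it begins at position -140. RefSeq promoters were found for 86 of the 105 members. CACGTG was present in 11 of these, 12.8%, in 4 of 22 proteasome genes, 18.2%, and in 2083 of 27025 genes in all, 7.71%. Psme3ip1 is among the 4, and Psme3ip1 and Usp6nl are among the 11. TGACNNNGC was present in 19 members, 22.1%, in 5 of 22 proteasome genes, 22.7%, and in 13% of all genes. The Usp genes, Usp6nl included, held the second motif in 6 of 17 windows and the conjugating enzymes in 1 of 16. The shares over all genes take in genes that are not named on the array or not detected. They are therefore not a like background, and enrichment among members was not tested. A match describes letters in a window and is not a measured site.

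The wider pathway was listed as 109 further genes, of which 57 are named on the array and 45 were tested. Their log2 differences had a median of 0.04, with 26 higher and 19 lower means in Myc-null hearts, and 0 passed the adjusted test. At an unadjusted p under 0.05 there were 5 with higher and 1 with lower means, 13.3% against 5.35% of units, and wild-type 3 was at least 1 log2 unit low for 8 of the 45, 17.8% against 8.72% of units. Without wild-type 3 there were 1 higher and 2 lower, 6.67% against 3.94% of units. Brcc3, a protease that cuts lysine-63 chains, had 157, 193, 169 and 188 units on the Myc-null arrays and 117, 135 and 33.3 on the wild-type arrays, with no overlap. Its log2 difference was 0.86, and 0.49 without wild-type 3. Birc2, an inhibitor of apoptosis with ligase activity, had 67.7, 111, 97.2 and 90.5 units on the Myc-null arrays and 64.1, 66.8 and 29.3 on the wild-type arrays, with no overlap and a log2 difference of 0.52. Cdc26, a small subunit of the anaphase-promoting complex, had means of 95.3 ± 19.4 in Myc-null hearts and 69.3 ± 7.08 in wild-type hearts, a log2 difference of 0.44, and the genotypes overlapped. Cdc20, the activator of the anaphase-promoting complex, had means of 1050 ± 84.6 in Myc-null hearts and 1260 ± 101 in wild-type hearts, with no overlap and a log2 difference of -0.27. Vcp, which extracts tagged proteins, had a log2 difference of -0.17, and -0.33 without wild-type 3. Sae1, a subunit of the SUMO-activating enzyme, had a log2 difference of -0.03, and Ubb, a ubiquitin gene, one of 0.00. Among the other bright genes of the lists, Pias1, a SUMO ligase, had a log2 difference of 0.48, Elob, an adaptor of cullin ligases, 0.16, Anapc5, a subunit of the anaphase-promoting complex, -0.06, Otud5, a deubiquitinase, -0.06, and Nedd4l, a HECT ligase, -0.14. For all 5 the genotypes overlapped. Without wild-type 3 the differences were 0.11 for Pias1, 0.18 for Elob, -0.01 for Anapc5, 0.09 for Otud5 and -0.18 for Nedd4l.

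The tissue label was checked against markers. Of 18 listed cardiomyocyte genes, 5 are named on the array and 4 were tested (Myh6, Myh7, Myl7 and Atp2a2), with a summed signal of 62400 to 93900 in Myc-null hearts and 60300 to 79500 in wild-type hearts. All 5 erythroid markers named were tested and had higher means in Myc-null hearts, with a summed signal of 84700 to 122000 in Myc-null hearts and 77500 to 92900 in wild-type hearts, and a median deviation of 1.06 on Myc-null 2. The part of the erythroid signal in the Senp1 and Ube2o values was not tested. Of 6 leukocyte markers named, 3 were detected on 0 arrays. Of 6 epicardial markers tested, 2 had higher and 4 lower means in Myc-null hearts, with a median log2 difference of -0.36 and a summed signal of 1380 to 2190 in Myc-null hearts and 1570 to 2470 in wild-type hearts. Of 6 mesenchymal markers tested, 3 were higher and 3 lower, with a median deviation of 0.80 on wild-type 3 and a summed signal of 8220 to 15200 in Myc-null hearts and 12700 to 19100 in wild-type hearts. The 3 cartilage markers tested had a median deviation of 2.61 on Myc-null 2 and a summed signal of 310 to 2490 in Myc-null hearts and 348 to 721 in wild-type hearts. Of 4 endothelial markers tested, 2 were higher and 2 lower. The part of these lists in the members' values was not tested.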

How the data were processed

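Hearts of 4 Myc-null and 3 wild-type mouse embryos were measured on 1 BeadChip. Per the file headers, BeadStudio 1.5.1.3 gave each target a rank-invariant-normalized intensity (signal), a detection score (a fraction from 0 to 1), the number of beads and their standard deviation, and the deposited group table holds the authors' difference score; the submitters' processing notes name BeadStudio 1.5.0.34. The intensities give no molecule counts, so depth is unknown and the number of arrays limits precision. Arrays had 8573 to 9678 detected targets.

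Targets were named through the NCBI Gene ID in their name, with RefSeq (GRCm38.p6): 8884 of 9523 such targets matched, and 4 bacterial controls were left out. Targets detected (score at least 0.99) on at least 3 arrays were kept, signal was floored at 58.2 and log2 taken, and the brightest target stood for a gene. Fold changes near the floor are therefore understated. Genotypes were compared over 9066 units with limma 3.58.1 in R 4.3.3 and Benjamini-Hochberg adjustment at 0.05. The fit was also run on simulated data with independent noise on each array, which does not show its power on arrays where wild-type 3 stood apart. The same replicate number in both genotypes gave correlations of 0.17, -0.26 and -0.31, so no pairing was used. The alternatives were other scalings, background handling, filters, floors, targets, a replicate block and leaving out arrays.

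Members and gene lists were chosen with earlier results of these data known. Single values of some items are not reported here, though counts include them. Named members were otherwise every tested Sumo and Senp gene and, in each family, the 2 genes with the smallest unadjusted p and the 2 with the highest mean signal; of other pathway genes, the 4 with the smallest p and the brightest of each list; Psme2, Psme4, Ube2d3, Ube2z, Ube2n, Ube2v1, Ube2m, Ube2f, Ube2e1, Psmb5, Psmb10 and Cul4a were added for their role or values after their values were seen.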

Additional observations from a re-analysis of the deposited data

Results flagged for a closer look

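Among 53 results examined in the 4 Myc-null hearts, 4 had 1 array far from the other 3, by the ratio of that gap to the whole range. Chance flags about 1 group in 20. Senp8 had a log2 signal of 6.30 on Myc-null 4, while the other 3 Myc-null hearts lay at 5.86 to 5.92, where the floor applies in part. Ube2d2a had 10.09 on Myc-null 1, against 10.50 to 10.54. Usp20 had 10.10 on Myc-null 2, against 10.58 to 10.63. The mean deviation of the F-box and cullin genes was -0.04 on Myc-null 1, against 0.08 to 0.09. The wild-type group of 3 was not examined this way.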

How the results depend on the processing

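In all 17 alternatives 0 members and 0 units passed the adjusted limma test, and the smallest adjusted p over all units was 0.0662, with the floor doubled. Senp1 kept a negative log2 difference throughout, between -1.22 and -0.40. Scaling decided small signs: the median over all units was 0.03 as deposited and -0.03 with quantile normalization, scaling to a common median or neqc (background and quantile correction of the raw signals), and the share of units with an unadjusted p under 0.05 that were higher in Myc-null hearts was 63.3%, against 44.4%, 42.3% and 52.9%. Fbxo28 was -0.04 with quantile normalization, -0.03 with a common median and -0.04 with neqc. With a common median Psmc3 and the proteasome median were each -0.07. The Usp median was 0.15 over the 9 genes detected on all arrays. The other target gave 0.02 for Fbxo42, where only Myc-null 2 was above the floor, and -0.08 for Sumo3.

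The correlations of same-numbered arrays, 0.17, -0.26 and -0.31, gave no ground for pairing by replicate number. With so few arrays they cannot show that such hearts were unrelated, and the labels name no litter. With the replicate block 0 units were called and 370 had an unadjusted p under 0.05, 2 members among them, with a smallest adjusted p of 0.846; Fbxo42 was 0.03, Psmc3 -0.04 and Senp8 -0.03.

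Without wild-type 3 and Myc-null 2 together, Fbxo28 was -0.10, Fbxo42 0.04, Psmd3 0.01, Psme4 -0.19, Senp2 -0.01, Sumo3 -0.09 and Usp20 0.03, while Psmd2 was -0.12 there. Leaving out single arrays, the ranges that crossed 0 were -0.09 to 0.05 for Usp39, -0.05 to 0.15 for Fbxo28, -0.14 to 0.08 for Fbxo42, -0.04 to 0.04 for Psmc3, -0.03 to 0.12 for Senp8, -0.10 to 0.02 for Psmd2, -0.27 to 0.01 for Fbxo27, -0.02 to 0.17 for Psmc1, -0.02 to 0.16 for Sumo3 and -0.21 to 1.22 for Psme4; the ranges were -0.16 to -0.03 for Psmd3, 0.04 to 0.46 for Senp2 and -0.20 to -0.02 for Usp20. For these reversals the cause was not tested. Leaving out Psme3ip1 and Usp6nl was chosen after seeing the data. Dim targets near the floor, Senp1 among them, limit the size that can be read.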
